A study of Zea mays with 48 samples.

Results

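The 150 probe sets described here were those whose total RNA signal in the maize pulvinus reached its lowest point 15 or 30 min after the plant was laid on its side. They were chosen from 17545 probe sets of the Affymetrix maize array. Signals were taken as log2(signal + 16), and 10299 probe sets with a mean of at least 7 over all 48 arrays were considered. For each time, the mean of the 4 vertical total RNA arrays was subtracted from the mean of the 4 reoriented ones. A candidate had its lowest difference at 15 or 30 min, lay below -0.4 there in each biological repetition alone, and never exceeded 0.4 at any time. These conditions left 283 probe sets, and the 150 with the lowest difference were taken. Of these, 104 were lowest at 15 min and 46 at 30 min.

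Plants of the inbred strain B73, about 6 weeks old, were either kept vertical or reoriented by 90 degrees for 2, 5, 15, 30 or 60 min, with 6 plants per time point. Reoriented pulvini were divided into a slowly elongating upper side and a fast elongating lower side, and vertical pulvini into left and right sides. Each frozen powder gave total RNA and polysomal RNA, the RNA found on polyribosomes, so that both kinds of RNA came from the same plants. The 24 groups held 2 arrays each, 1 from each of 2 growing seasons, called biological repetitions 1 and 2 below. Each time point was therefore represented by 1 pool of plants per repetition, and no harvest time of day is given for the vertical plants in the labels used here. The pulvinus was sampled as a whole tissue, so fewer cells of a type and less RNA per cell cannot be told apart.

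The grass pulvinus is a swollen node that stays able to elongate after the stem around it has stopped growing. When the stem is tilted, starch-filled plastids settle towards the new lower side, auxin becomes unequally distributed, and cells of the lower side elongate more than those of the upper side until the stem points up again. Elongation needs water uptake through aquaporins, loosening of the cell wall and supply of sugars, and messenger RNA loaded on polyribosomes is the fraction being translated.

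The 2% trimmed mean of the signal lay between 495.8 and 499.1 on the 48 arrays, and the median signal between 174.3 and 216.9. The arrays of the 2 sides of a pool correlated at r = 0.972 to 0.992 in 23 of the 24 pairs. The exception was 5 min in polysomal RNA of repetition 1, where r was 0.900. The array labelled upper side there correlated with the upper and lower arrays of repetition 2 at r = 0.981 and 0.980. The numbers of members that passed the polysomal tests against vertical plants at 5 min and later are therefore also given without this array. The same holds for the polysomal tests between times after reorientation. Other counts below that involve polysomal RNA, such as those for overlaps between tests, gene lists, sides and timing, are given only with this array. Green tissue markers were high, with 9 of 10 probe sets at a mean of at least 7, and the other, a CP24 probe set, had a mean of 4.51. By contrast, 2 of 13 seed or pollen probe sets reached that level.

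Few of the 150 members carried a gene name. The annotation used here listed exactly 1 gene for 11 of them (7.33%), against 901 of the 10299 probe sets considered (8.75%). The other 139 are called by their probe set identifiers. The identifiers fell into 142 sequence clusters, and 13 members shared a cluster with another member, so a few members may report the same transcript. Identifiers ending in _x_at (11 members) or _s_at (5 members) mark probes that can also match related transcripts.

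The values that chose the members are given as a description. The lowest difference in total RNA ran from -1.76 to -0.60, with a median of -0.75 and quartiles of -0.89 and -0.68. The last 3 members taken were Zm.1110.1.A1_at at -0.61, and Zm.5036.1.A1_at and Zm.8910.1.A1_at at -0.60. The next 3 candidates also lay at -0.60, so no gap in the values separated members from the 133 candidates not taken. The lowest difference was deeper in repetition 1 for 96 members, with medians of -0.84 in repetition 1 and -0.72 in repetition 2. It differed between the repetitions by more than 1 log2 unit in 6 members, of which NIP2-2 has a listed gene. The mean level of the members over 48 arrays ranged from 7 to 11.33, with a median of 8.75 against 9.09 for all probe sets considered.

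The total RNA differences at the other times share the vertical arrays with those that chose the members, and the rule used them too, so they are a description and no sign of an early change. The members' median difference from vertical over the 5 times was -0.24, -0.23, -0.72, -0.60 and -0.42, in order from 2 to 60 min, while the median of all probe sets considered stayed between -0.03 and 0.02. At 2 min 126 of the 150 lay below the vertical mean, against 49.7% of all probe sets considered, and 44 of them by more than 0.4, against 4.28%. At 60 min the median member still showed 50.8% of its lowest difference, with quartiles of 21.1% and 73.1%, and 18 members were above the vertical mean. The 46 members lowest at 30 min kept a median of -0.47 at 60 min, and the 104 lowest at 15 min kept -0.32.

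**Figure D1:**
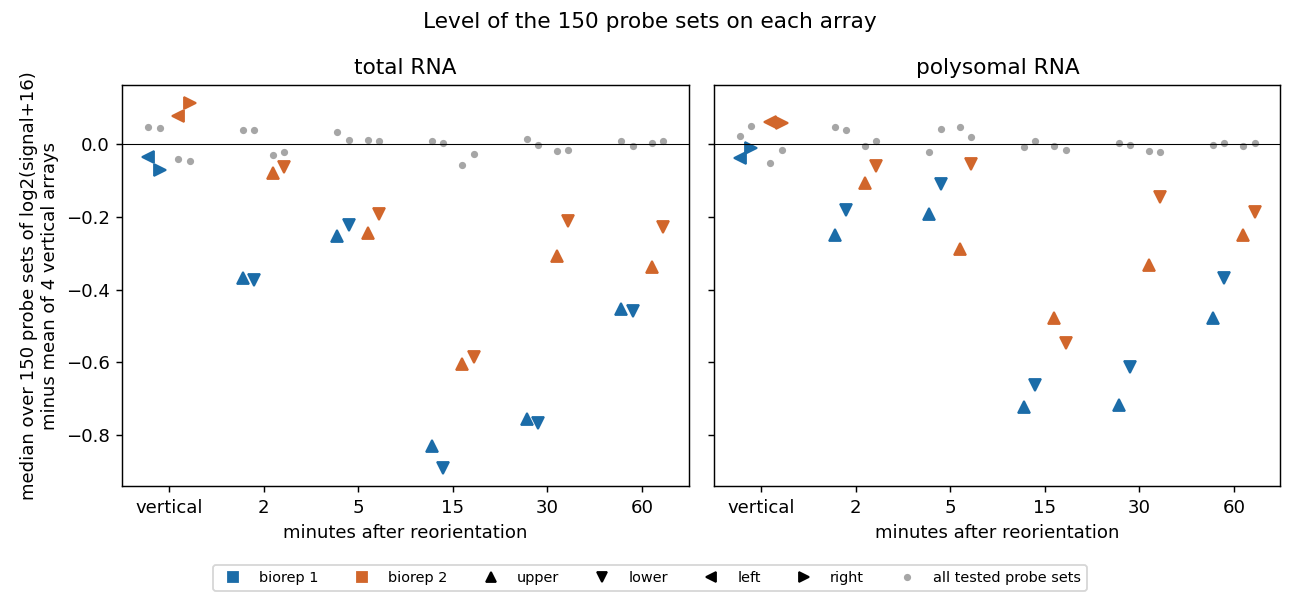
Median over the 150 members of log2(signal + 16) minus the mean of the 4 vertical arrays, for each array of total RNA (left) and polysomal RNA (right), against minutes after reorientation. Colours mark the repetition, triangles the side, and grey dots the median of all probe sets considered; in total RNA the members' median over all 4 arrays is -0.24 at 2 min and -0.72 at 15 min and stands at -0.42 at 60 min.

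Polysomal differences from vertical were not used to choose the members, although the filter on the mean signal included the polysomal arrays. Both kinds of RNA came from the same powders. Over all probe sets considered their differences from vertical correlated at r = 0.88 at 15 min and 0.88 at 30 min. The polysomal counts and limma calls against vertical plants are therefore not independent of the choice. In polysomal RNA the members were also low at 15 and 30 min and closer to the vertical level at 2, 5 and 60 min. Their median difference from vertical at 2, 5, 15, 30 and 60 min was -0.17, -0.17, -0.61, -0.48 and -0.33, respectively. At 15 min 146 of the 150 lay below the vertical mean, against 53.2% of all probe sets considered, and at 30 min 133 did, against 54.8%. In 132 members at 15 min and 109 at 30 min, the reoriented mean of each repetition lay below the vertical mean of the same repetition. Of all probe sets, 31.3% and 30.7% did so. All 4 reoriented polysomal arrays lay below all 4 vertical ones in 60 members at 15 min, where 5.16% of all probe sets did so, and in 42 members at 30 min, where 4.02% did.

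In the limma fit of the 24 polysomal arrays, 34 members were lower than in vertical plants at 15 min at an adjusted p under 0.05, against 0.971% of all probe sets called lower, and none was higher, against 2.75% of all probe sets called higher. At an unadjusted p under 0.05 also 0 members were higher, against 9.04% of all. At 30 min 18 members were lower, against 0.398% of all probe sets, and at 60 min 11 were lower, against 0.495%. At 5 min 2 members were lower, against 0.379% of all. At 2 min limma called no member and 0% of all probe sets, and 17 members were lower at an unadjusted p under 0.05, against 2.89% of all. The members called lower numbered 46 over 15 and 30 min together, of which 6 passed at both times. Of the 11 called at 60 min, 9 were among those 46.

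Without the polysomal upper array of repetition 1 at 5 min, the counts for 15, 30 and 60 min were 41, 16 and 10 members, of which 32, 14 and 8 passed in both fits. The share of all probe sets called with an array left out is not given here. The 2 members called at 5 min, Zm.15076.1.A1_at and mpao1, were both no longer called without it, with adjusted p = 0.07804 and 0.09971 in limma, and 1 other member passed. The 15 min count was 22 without the vertical right array of repetition 1. At 30 min the count was 4 or 5 without either vertical array or either 30 min array of repetition 1, and 9 without either vertical array of repetition 2. At 60 min it lay between 2 and 6 without either vertical array of repetition 1, either 60 min array of repetition 1, or the vertical left, vertical right or 60 min upper array of repetition 2.

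Among the named members, those of water transport included pip2c and NIP2-2. The aquaporin pip2c belongs to the plasma membrane intrinsic proteins, which carry water into and out of the cell. In polysomal RNA its signal was 1519.9 and 1323.9 in the left and right sides of vertical plants of repetition 1 and 1322.1 and 1060.3 in those of repetition 2. At 15 min it was 729.8 and 802.8 in the upper and lower sides of repetition 1 and 810.2 and 774.8 in those of repetition 2. All 4 arrays at 15 min were thus below all 4 vertical arrays, and the limma difference was -0.72 ± 0.17 (SE, 4 arrays against 4; adjusted p = 0.02806).

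At 30 min pip2c ranged from 830.5 to 1002.3 in polysomal RNA, again below every vertical array, with a limma difference of -0.48 (adjusted p = 0.1886) that did not pass. At 60 min the repetitions parted, with 1559.2 and 1327.4 in repetition 1 and 737.5 and 801.9 in repetition 2. Leaving out any 1 of 7 of the 8 arrays compared at 15 min took the adjusted p above 0.05, to between 0.05092 and 0.08369. The pip2c probe set is of the kind that can match related transcripts.

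NIP2-2 is an aquaporin of the nodulin-26-like group, whose counterparts in rice carry silicic acid. Its total RNA signal in repetition 1 was 381.3 and 168.0 in vertical plants and 31.4 and 26.9 at 15 min, and in repetition 2 it was 119.0 and 94.3 and then 75.5 and 76.9. The difference from vertical at 15 min was -2.58 in repetition 1 and -0.40 in repetition 2, so repetition 2 lies at the edge of the rule. In polysomal RNA the 2 repetitions also differed. Repetition 1 went from 350.1 and 276.5 to 46.4 and 47.9 at 15 min, and repetition 2 stood at 89.4 and 103.3 in vertical plants and 93.0 and 98.0 at 15 min. The polysomal difference of -1.19 ± 0.53 (SE) did not pass in limma (adjusted p = 0.2703), and by 60 min the signal of 155.4 to 216.3 lay within the range of the vertical arrays.

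On the aquaporin list, 25 probe sets of 21 genes were tested, 2 of them members. This list, like the others, was chosen with earlier results of these data known. At 15 min 3 were lower and 1 was higher in polysomal RNA, and the list's median was -0.34 against -0.02 for all probe sets. The lower ones were pip2c and 2 probe sets of PIP1-3, another plasma membrane aquaporin, at -0.74 (adjusted p = 0.04834) and -0.70 (adjusted p = 0.04085). The higher one was TIP1-2, an aquaporin of the vacuolar membrane, at 2.09 (adjusted p = 0.04098). At an unadjusted p under 0.05, 10 of the list were lower and 1 higher at 15 min, against 7.82% and 9.04% of all probe sets. At 30 min limma called none of the list. At an unadjusted p under 0.05, 9 were then lower and 1 higher, against 7.17% and 7.91% of all probe sets.

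PPCK1 and OEE3 stood on the photosynthesis list. PPCK1 is phosphoenolpyruvate carboxylase kinase, which phosphorylates the carbon-fixing enzyme phosphoenolpyruvate carboxylase. Its polysomal signal in repetition 1 was 922.5 and 849.4 in vertical plants and 407.4 and 501.8 at 15 min, and in repetition 2 it was 377.8 and 373.5 in vertical plants and 162.2 and 177.3 at 15 min. Repetition 1 was the brighter one throughout, so the arrays overlapped between conditions, but each 15 min array was below both vertical arrays of its own repetition. The limma difference was -1.01 ± 0.19 (SE, 4 arrays against 4; adjusted p = 0.003853).

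PPCK1 was near its vertical level at the early times, with polysomal differences of 0.00 at 2 min and -0.03 at 5 min. The mean of 15 and 30 min lay below the mean of 2 and 5 min by -0.65 ± 0.13 (SE; adjusted p = 0.006191 in limma). At 30 min its difference was -0.32 and at 60 min -0.19, neither past the threshold (adjusted p = 0.4554 and 0.6903). None of the fits without 1 array took its adjusted p at 15 min above 0.05.

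OEE3, a protein of the oxygen-evolving complex of photosystem II, was lowest at 30 min. In polysomal RNA its signal was 2490.0, 2308.3, 1781.7 and 2213.9 on the vertical arrays and 656.9, 890.4, 1339.4 and 1545.7 at 30 min, in the order left or upper and right or lower of repetition 1, then of repetition 2. All 4 arrays at 30 min were below all vertical arrays, and both values of repetition 1 were below those of repetition 2. The limma difference was -1.04 ± 0.22 (SE; adjusted p = 0.02054). It was no longer called without either 30 min array or either vertical array of repetition 1 (adjusted p between 0.05608 and 0.07997).

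Green tissue markers moved with repetition as well. The summed total RNA signal of the 10 green probe sets, OEE3 among them, was 21146 to 22580 in vertical plants of repetition 1, 10833 to 13354 at 15 min and 8487 to 8901 at 30 min. In repetition 2 it was 22942 to 23622 in vertical plants, 22985 to 24207 at 15 min and 19455 to 21448 at 30 min. In polysomal RNA at 15 min the sum was 12814 to 13960 in repetition 1 against 25853 to 26059 in vertical plants, and 22760 to 22962 in repetition 2 against 23463 to 24376. In polysomal RNA at 15 min, 144 of the 150 members were below their vertical level in repetition 1, with a median of -0.62. In repetition 2 137 were, with a median of -0.56. Over both repetitions together 53.2% of all probe sets were below, with a median of -0.02. The rule required each member to be low in each repetition at its lowest time in total RNA of the same powders, so these counts are a description. The part of green cells in the members' low levels was not tested. On the photosynthesis list as a whole 21 probe sets were tested. Limma called 1 lower at 15 min (PPCK1), and 1 lower (OEE3) and 1 higher (FDX6, a ferredoxin, 0.46, adjusted p = 0.04493) at 30 min. At an unadjusted p under 0.05, 8 were lower and 0 higher at 15 min, and 12 lower and 1 higher at 30 min. Of all probe sets, 7.82% and 7.17% were lower at that level at 15 and 30 min. The list's median was -0.41 at 15 min and -0.57 at 30 min.

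Among the members with roles in the nucleus, his1 encodes the linker histone H1, which binds the DNA between nucleosomes. Its total RNA signal in repetition 1 was 1229.2 and 1218.5 in vertical plants, 313.0 and 421.0 at 15 min and 345.3 and 384.1 at 30 min. In repetition 2 it was 1435.7 and 1574.5 in vertical plants, 714.5 and 1021.5 at 15 min and 1076.4 and 1040.1 at 30 min. Both repetitions were lower than their vertical arrays at both times, and repetition 1 more so.

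In polysomal RNA the his1 difference was -1.23 ± 0.36 (SE) at 15 min and -1.29 ± 0.36 at 30 min, neither past the threshold in limma (adjusted p = 0.07795 and 0.0835). The low polysomal level at 30 min was mainly that of repetition 1, at 169.1 and 239.6 against 1174.4 and 1070.7 in vertical plants. Repetition 2 stood at 1113.2 and 944.1 against 1048.9 and 1308.2, so its arrays overlapped. Another pair of probe sets for the same gene was not among the members. They lay at -0.73 (adjusted p = 0.05035) and -0.67 (adjusted p = 0.09762) in polysomal RNA at 15 min. All 3 end in _x_at. On the histone and chromatin list 55 probe sets were tested. Limma called none lower and 1 higher at each of 15 and 30 min. At an unadjusted p under 0.05, 9 and 5 were lower, against 7.82% and 7.17% of all probe sets.

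rs2 encodes the MYB-type regulator ROUGH SHEATH2, which keeps knox genes silent in maize leaf primordia. Its polysomal signal was 437.6, 519.7, 743.0 and 575.7 on the vertical arrays and 297.1, 245.5, 276.6 and 298.2 at 15 min. The groups did not overlap, yet the difference of -0.96 ± 0.30 (SE) did not pass in limma (adjusted p = 0.0997). It was as low at 2 min, at -0.95 ± 0.30 (adjusted p = 0.5012), with 205.0 and 221.3 in repetition 2 and 284.9 and 475.8 in repetition 1, where the lower side array lay within the vertical range.

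Enzymes of amine, phenolic and sulphur metabolism and a protease made up most of the remaining named members. mpao1 is a polyamine oxidase, which oxidises spermidine and spermine and releases hydrogen peroxide. Its polysomal signal in repetition 1 was 1023.0 and 990.5 in vertical plants and 529.2 and 336.0 at 15 min, and in repetition 2 it was 2194.3 and 2702.7 in vertical plants and 828.4 and 857.7 at 15 min. All 4 arrays at 15 min were below all 4 vertical arrays. The limma difference was -1.37 ± 0.32 (SE; adjusted p = 0.02525), and leaving out any 1 of 5 arrays took the adjusted p to between 0.05431 and 0.08346.

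At 5 min mpao1 stood apart between the sides in repetition 2, with 309.7 in the upper and 1358.4 in the lower side in total RNA and 278.2 and 1362.0 in polysomal RNA. The polysomal upper array of repetition 1, the one that resembled repetition 2, read 210.9, while total RNA of the same powder read 1161.8. The polysomal difference at 5 min was -1.54 ± 0.32 (SE; adjusted p = 0.04417) with this array and -1.61 ± 0.37 (adjusted p = 0.09971) without it.

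ccr2, a cinnamoyl-CoA reductase of lignin precursor synthesis, was at 173.8, 110.9, 190.6 and 198.1 on the vertical polysomal arrays and at 60.3, 80.3, 89.6 and 127.2 at 15 min. 1 vertical array of repetition 1 lay within the range of the 15 min arrays, and the difference of -0.82 ± 0.30 (SE) did not pass in limma (adjusted p = 0.1644). mir3 is a papain-like cysteine protease gene of a maize family studied for resistance to insects. Its difference at 15 min was deeper in polysomal than in total RNA, at -1.16 ± 0.47 and -0.63 ± 0.20 (SE), and the polysomal one did not pass (adjusted p = 0.2119). In repetition 1 its polysomal signal was 751.2 and 919.2 in vertical plants and 153.5 and 235.5 at 30 min, whereas repetition 2 stood at 1273.4 and 1157.3 and then at 1445.8 and 1370.8.

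gst11 and LOC542694 were low in total RNA at 15 min and closer to the vertical level in polysomal RNA. gst11, a glutathione transferase of the family that joins glutathione to reactive compounds, had a total RNA difference of -0.66 ± 0.31 (SE) at 15 min and a polysomal one of -0.17 ± 0.43 (adjusted p = 0.894). LOC542694, for which no function was listed, had -0.64 ± 0.19 in total RNA and -0.04 ± 0.12 in polysomal RNA (adjusted p = 0.9171). Its total RNA signal at 15 min was 425.7, 288.1, 636.7 and 573.9, below 671.9, 587.9, 852.2 and 840.8 on the matching vertical arrays. Its polysomal signal was 516.1 to 617.7 at 15 min and 525.3 to 623.0 in vertical plants, so the ranges overlapped. The difference between the 2 kinds of RNA was not tested, since total RNA chose the members. Of 18 glutathione transferase probe sets tested, limma called none lower (1 at an unadjusted p under 0.05) and gst30 higher at 15 min, and GST38 lower and gst30 higher at 30 min. Of all probe sets, 7.82% were lower at an unadjusted p under 0.05 at 15 min.

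**Figure D2:**
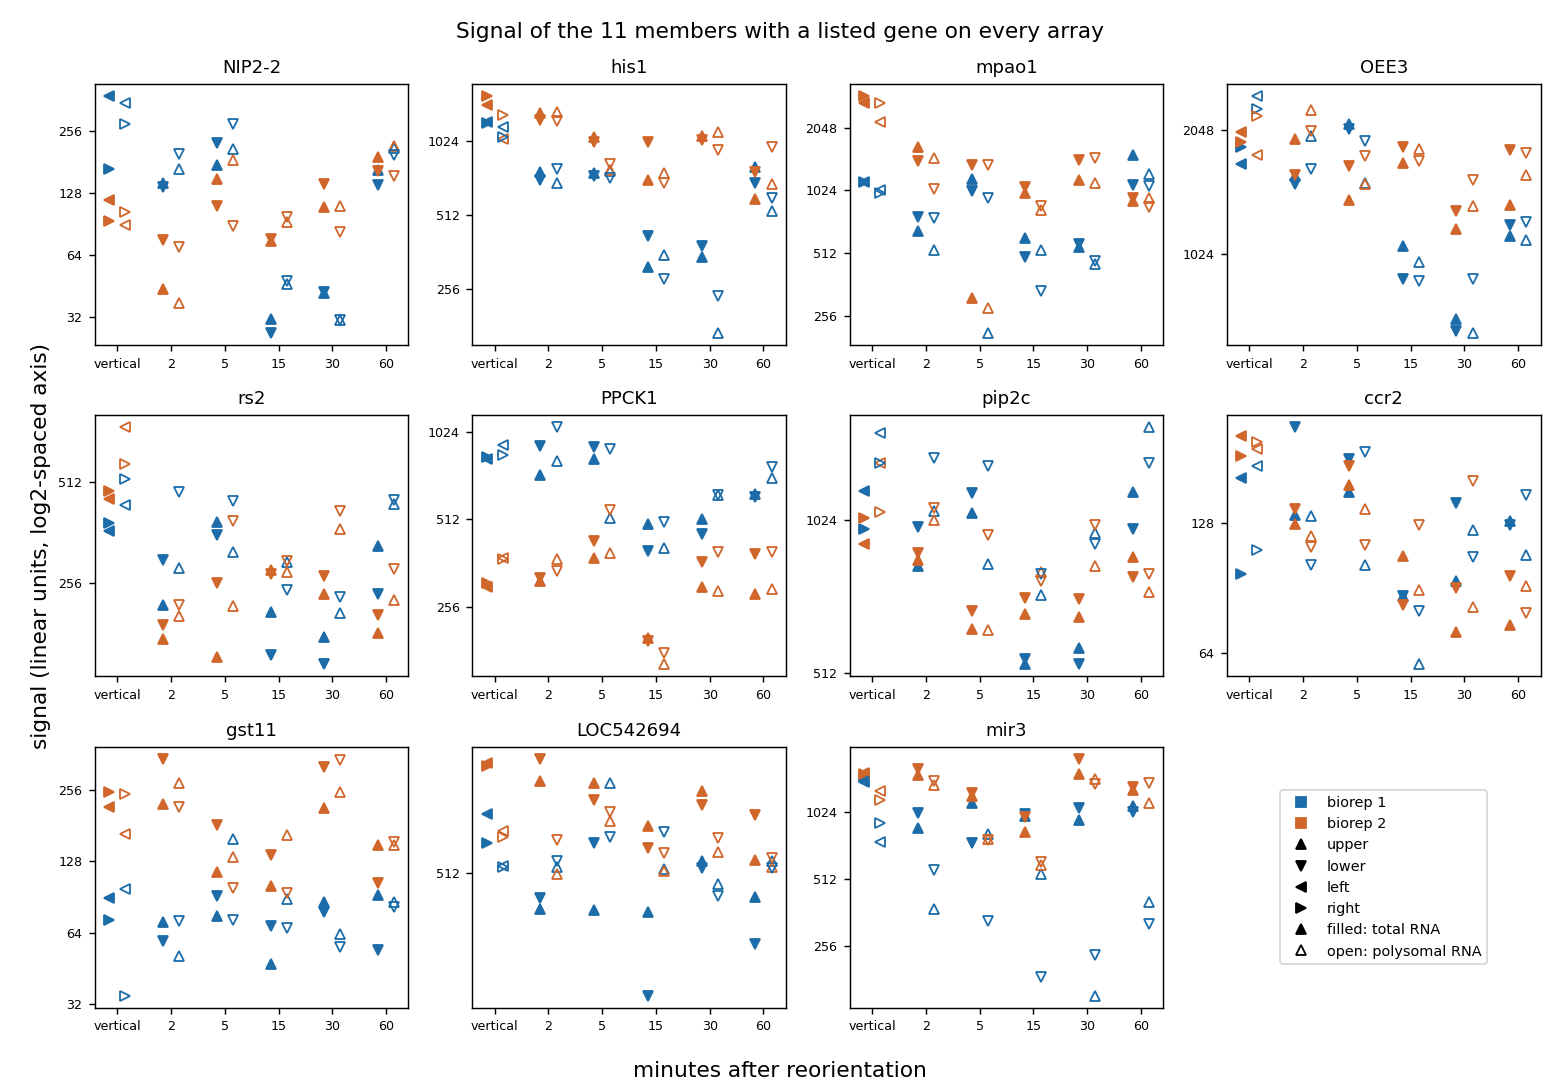
Signal of the 11 members with a listed gene on every array, on a log2-spaced axis, against minutes after reorientation. Filled symbols are total RNA and open symbols polysomal RNA, with colours for the repetition and triangles for the side; pip2c and mpao1 at 15 min and OEE3 at 30 min lie below all vertical arrays in polysomal RNA, and NIP2-2 at 15 min is low mainly in repetition 1.

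The other lists held no member. They were cell wall and expansion (40 probe sets tested), cytoskeleton (29), sugar and starch (16), hormone synthesis and response (29), cell cycle (11), ribosomal proteins (23), calcium and kinase signalling (37), early stress factors (4) and seed storage and pollen markers (4). In polysomal RNA at 15 and 30 min limma called none of their 193 probe sets lower, against 0.971% and 0.398% of all. At an unadjusted p under 0.05, 11 and 9 of them were lower, against 7.82% and 7.17% of all. Limma called 9 higher at 15 min and 6 at 30 min, against 2.75% and 1.97% of all probe sets. Among them were 3 of the early stress factors at 15 min and the expansin gene expA4 at both times. The medians of these lists at 15 min ran from -0.22 for seed storage and pollen markers to 0.72 for early stress factors.

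The smallest adjusted p-values belonged to members without a listed gene. Zm.15854.1.S1_at had the smallest adjusted p of the members at 15 min. Its polysomal signal was 837.1, 946.6, 756.9 and 768.9 on the vertical arrays, 408.7, 365.2, 215.3 and 226.1 at 15 min and 728.8, 766.5, 603.8 and 645.2 at 60 min. The 15 min arrays were all below the vertical ones, and the difference was -1.45 ± 0.17 (SE; adjusted p = 6.834e-05 in limma). At 2 min the signal was already 491.7 to 733.7, below every vertical array. At 5 min it was 688.8 to 1052.2, which reached above and below the vertical range.

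ZmAffx.1171.1.S1_at had the smallest adjusted p for the return. Its polysomal signal was 583.1 to 663.0 in vertical plants and 508.1 to 840.2 at 5 min. It then stood at 176.7 to 307.6 at 15 min, and at 485.4 to 609.2 after 30 min and 635.1 to 705.5 after 60 min. The level at 60 min exceeded the mean of 15 and 30 min by 0.87 ± 0.15 (SE; adjusted p = 0.004364 in limma). Total RNA followed the same course, from 575.6 to 755.1 in vertical plants to 211.1 to 320.7 at 15 min.

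Zm.692.1.S1_at, with the smallest adjusted p at 30 min, had polysomal signals of 1206.4 to 1482.4 in vertical plants and 570.9 to 890.1 at 30 min, a difference of -0.97 ± 0.15 (SE; adjusted p = 0.002364). It was already at 608.5 to 747.9 at 15 min and still at 614.9 to 945.2 at 60 min, so it stayed below the vertical range from 15 min on. Zm.13648.1.S1_at had the smallest adjusted p at 60 min. Its polysomal signal was 790.4 to 1014.9 in vertical plants, 632.5 to 845.8 at 15 min and 523.1 to 703.0 at 30 min. After 60 min it was 424.7 to 540.7, where the difference was -0.95 ± 0.14 (SE; adjusted p = 0.003562).

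Zm.15940.1.S1_at had the smallest adjusted p between the early times and 15 and 30 min. Its polysomal signal lay between 1525.6 and 2619.1 at 2 and 5 min and between 967.0 and 1949.7 at 15 and 30 min, with a difference of -0.83 ± 0.11 (SE; adjusted p = 0.0001547). Repetition 1 remained low at 60 min, at 918.6 and 943.6, and repetition 2 stood at 1377.1 and 1662.3.

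**Figure D3:**
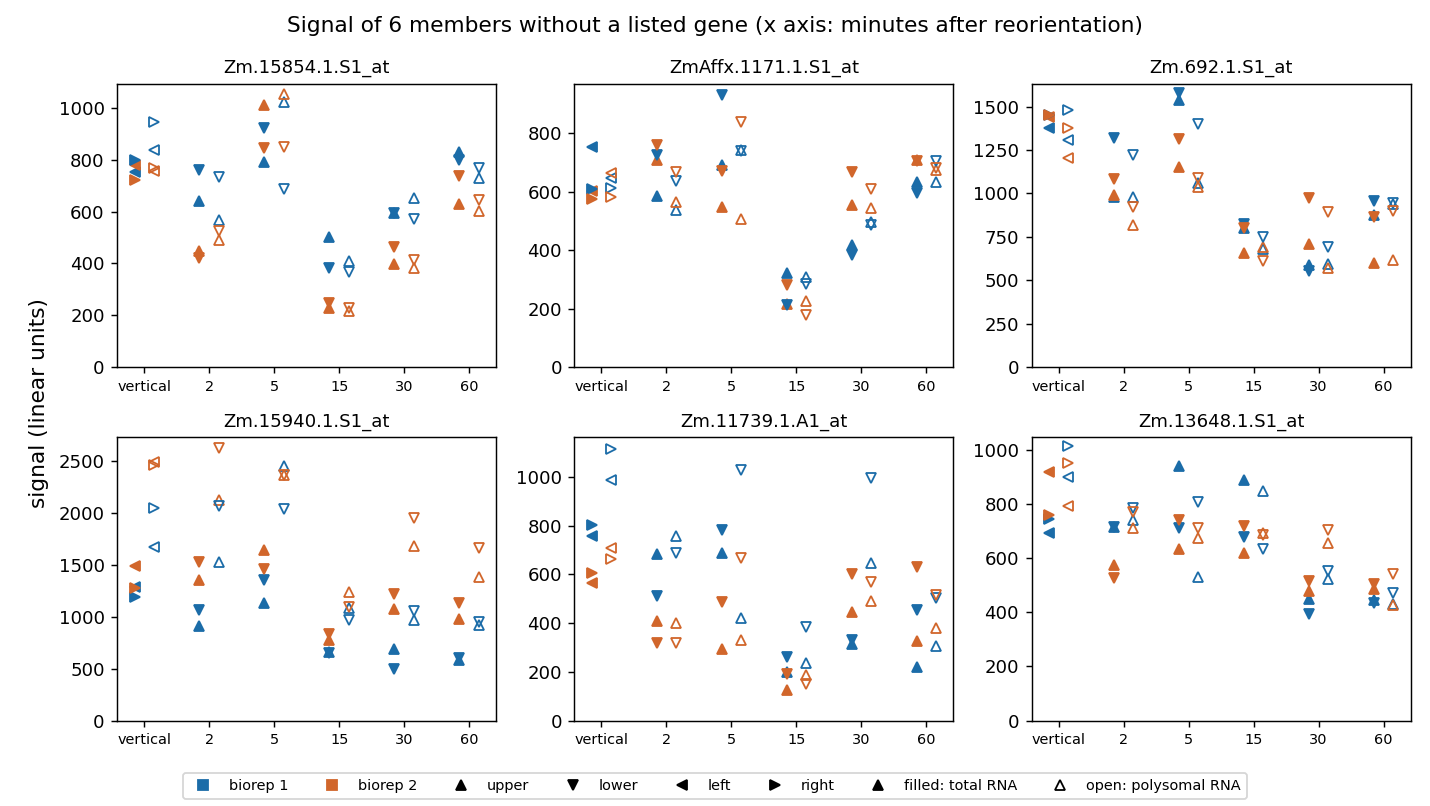
Signal of 6 members without a listed gene on every array, on a linear axis from 0, against minutes after reorientation. Filled symbols are total RNA and open symbols polysomal RNA. Zm.15854.1.S1_at and ZmAffx.1171.1.S1_at are lowest at 15 min and back near the vertical range at 60 min, while Zm.692.1.S1_at and Zm.13648.1.S1_at are still low at 60 min.

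The 5 members without a listed gene that were lowest in total RNA differed in how alike the repetitions were. Zm.11739.1.A1_at had the lowest difference of all, -1.71 in repetition 1 and -1.81 in repetition 2, with total RNA signals of 564.1 to 803.4 in vertical plants and 125.9 to 259.5 at 15 min. Zm.15076.1.A1_at was low at every time after reorientation, with total RNA at 1083.0 to 1349.2 in vertical plants, 243.0 to 838.2 at 2 min and 233.6 to 416.8 at 30 min. Zm.7385.1.A1_at started from different levels, 145.5 and 152.5 in repetition 1 and 440.2 and 774.4 in repetition 2, and stood between 72.0 and 91.1 in both at 15 min. Zm.5090.1.A1_at went opposite ways at 2 min, with 815.7 and 769.1 in repetition 2 against 508.4 and 613.3 in vertical plants, and 379.6 and 345.3 in repetition 1 against 505.6 and 502.1. Zm.1754.1.A1_a_at stood at 422.6 to 1044.2 in vertical plants and 152.9 to 409.9 at 30 min, with repetition 1 the dimmer at both.

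The comparisons that share no vertical array gave the onset and the return. The rule had placed the lowest total RNA difference of each member at 15 or 30 min. The directions of both comparisons in polysomal RNA of the same powders are therefore not independent of the choice. In polysomal RNA the mean of 15 and 30 min was below the mean of 2 and 5 min in 35 members, against 2.28% of all probe sets called lower by limma. OEE3 and PPCK1 were among them, and 24 of the 35 were also below vertical plants at 15 or 30 min. Limma called no member higher, against 4.75% of all probe sets, and 1 member was higher at an unadjusted p under 0.05, against 9.87% of all. The count was 59 without the upper array of repetition 2 at 5 min, and 32 without the upper array of repetition 1 at 5 min.

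The level at 60 min was above the mean of 15 and 30 min in 5 members, against 0.495% of all probe sets called higher, and 32 members were higher at an unadjusted p under 0.05, against 4.71% of all. Besides ZmAffx.1171.1.S1_at and Zm.15854.1.S1_at these were Zm.1487.1.S1_at, Zm.3101.1.S1_at and Zm.8571.1.A1_at, of which the last 3 were named after their values were seen. Without any 1 of 8 arrays at 15, 30 or 60 min the count was 2 or 3, and it was 4 without the upper array of repetition 1 at 5 min. In repetition 1 Zm.8571.1.A1_at stood at 245.6 and 225.1 at 60 min and at 146.9 and 144.1 in vertical plants, and in repetition 2 at 163.2 and 133.8 and at 170.8 and 207.0, so that it lay above its vertical arrays in repetition 1 and below them in repetition 2. No named member passed, and NIP2-2 had the largest named difference at 1.43 ± 0.46 (SE; adjusted p = 0.1941).

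Timing was mostly shared between the 2 kinds of RNA, which is given as a description since both came from the same powders. In polysomal RNA 125 of the 150 members were lowest at 15 or 30 min, against 43.0% of all probe sets considered. The lowest time was the same in both kinds of RNA for 79 of the 104 members lowest at 15 min and for 26 of the 46 lowest at 30 min. Of the 104, limma called 31 lower at 15 min and 4 at 30 min in polysomal RNA, and of the 46 it called 3 at 15 min and 14 at 30 min.

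Across the 150 members the changes in total and polysomal RNA correlated at r = 0.72, 0.85 and 0.78 for 15, 30 and 60 min, against 0.88, 0.88 and 0.87 over all probe sets considered. These are correlations across probe sets of shared powders and are given as a description. The polysomal minus total difference had a median of 0.07, 0.08 and 0.05 for the same times. Since the members were taken for their lowest total RNA differences, a smaller polysomal difference can follow from the choice alone. The polysomal difference was the lower one in 56 members at 15 min and 48 at 30 min.

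**Figure D4:**
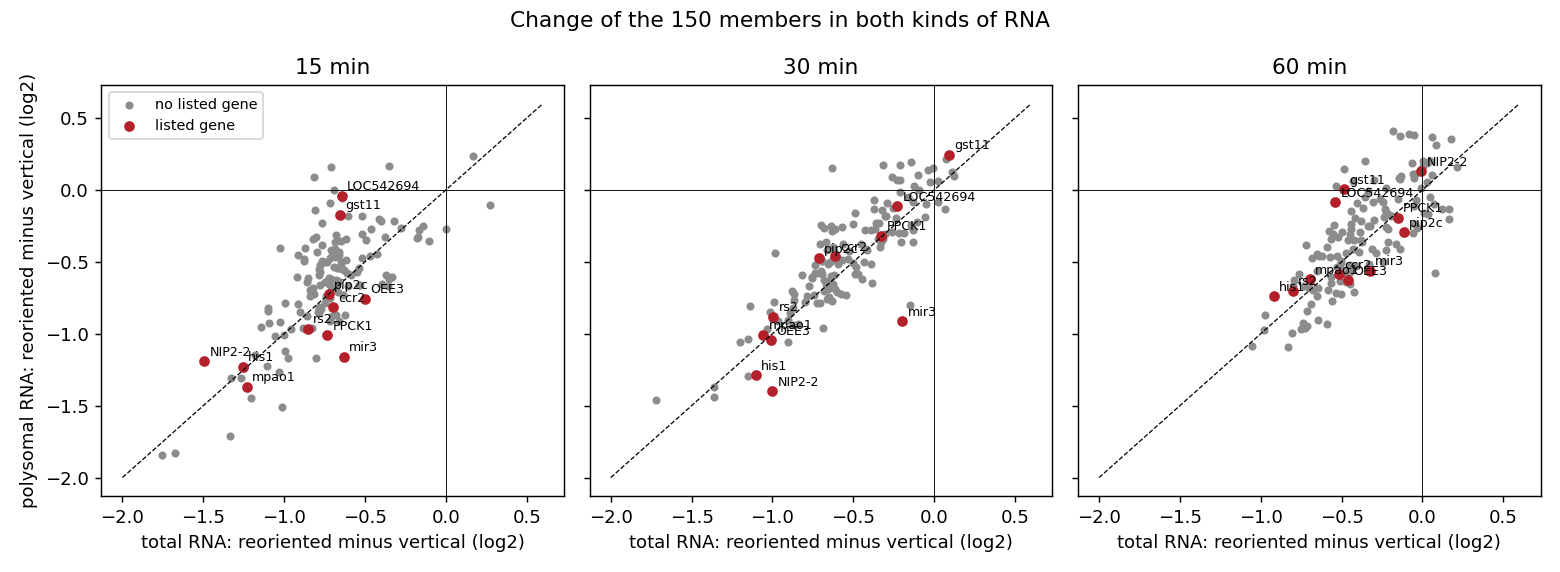
Difference from vertical plants in total RNA (x axis) and polysomal RNA (y axis), in log2 units, of the 150 members at 15, 30 and 60 min, with members that have a listed gene in red and the line of equality dashed. Most members lie close to the line, gst11 and LOC542694 lie near 0 in polysomal RNA at 15 min, and mir3 lies below the line at 15 and 30 min.

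The choice of members used the mean of the upper and lower sides and not their difference. That both sides lay below vertical plants in most members is therefore largely fixed by the choice and is given as a description. In total RNA 146 of the 150 members were below the vertical mean in both sides at 15 min and 139 at 30 min. The median was -0.70 in the upper and -0.74 in the lower side at 15 min, and -0.59 and -0.54 at 30 min. The lower minus upper difference averaged over 15 and 30 min had a median of 0.00 with quartiles of -0.07 and 0.10, and its median SE was 0.12.

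In limma no member and 0% of all probe sets differed between the sides in total RNA, and 12 members did so at an unadjusted p under 0.05, against 5.22% of all. In polysomal RNA again no member and 0% of all probe sets passed, and 4 members had an unadjusted p under 0.05, against 1.86% of all. The size of the difference was under 0.2 in 121 members in total RNA and 120 in polysomal RNA, and the extremes were -0.68 and 0.59 in total RNA.

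**Figure D5:**
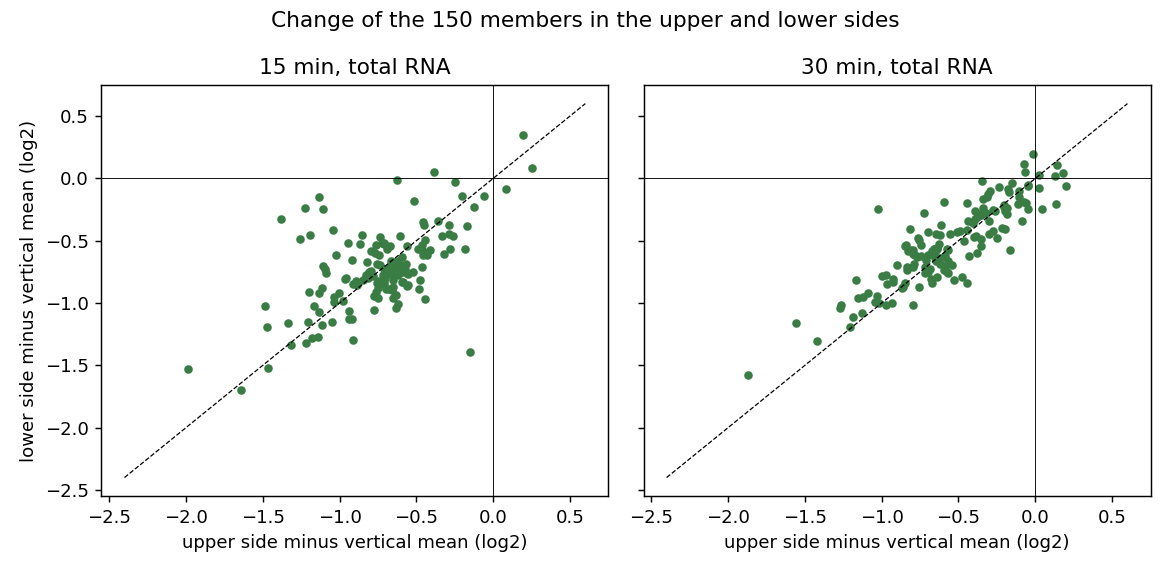
Difference from the vertical mean of the upper side (x axis) and the lower side (y axis) in total RNA, in log2 units, for the 150 members at 15 min (left) and 30 min (right), with the line of equality dashed. At 15 min 146 points and at 30 min 139 points lie below 0 on both axes, and the points scatter around the line.

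When the right minus left difference of vertical plants was subtracted from the side difference at 15 and 30 min, 1 member passed in total RNA, ZmAffx.669.1.A1_at, against 0.0194% of all probe sets called. The vertical total RNA arrays of this contrast also entered the rule, and the right ones were high for this probe set. Its call is therefore given as a description. In polysomal RNA limma called no member and 0% of all probe sets, and 2 members had an unadjusted p under 0.05, against 3.45% of all.

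The members' levels also differed between the repetitions before any reorientation. In vertical plants the size of the difference between the repetitions had a median of 0.45 log2 units over the members in total RNA and 0.30 over all probe sets considered, and 0.44 and 0.27 in polysomal RNA. The repetition was a term of the fits reported here, and the counts without it are given with the alternatives.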

How the data were processed

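Signal values of 48 Affymetrix maize arrays were used as deposited. The authors made this signal with GCOS, per the submitters' processing notes, and its scaling target and detection calls are not given in the sources used here. Repetition numbers mark growing seasons. Departures from group means correlated between groups within a repetition (median r of 0.626 in total and 0.664 in polysomal RNA over 66 pairs of groups each, lowest -0.023, or 0.536 without the polysomal upper 5 min group, and 0.508 in total RNA), so the repetition was a fixed effect.

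All tests used limma 3.58.1 (statmod 1.5.0, R 4.3.3) on log2(signal + 16), with 12 groups, the plant pool as a random block (correlation 0.381 in polysomal and 0.576 in total RNA), eBayes with a trend, 11 residual degrees of freedom and Benjamini-Hochberg adjustment over 10299 probe sets. The threshold was an adjusted p of 0.05. SE is that of the contrast. Total RNA against vertical chose the members and was not tested. With 1 pool per time and repetition, p-values measure the spread between these arrays.

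Members, gene lists and tests were chosen with earlier results of these data known. Named were all members with 1 listed gene, the 5 others lowest in total RNA, those next to the limit of 150, and the smallest adjusted p of each test. Gene names came from the array annotation, with 1452 probe sets of 1 gene, 1 of several and 16092 of none, of which 1377 were found in the RefSeq annotation of Zm-B73-REFERENCE-NAM-5.0. The pipeline was tested on simulated data. Alternatives were pseudocounts of 1 and 64, quantile normalization, other filters, no pool block, no replicate block and leaving out each array.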

Additional observations from a re-analysis of the deposited data

Results flagged for a closer look

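ZmAffx.669.1.A1_at was singled out because its side difference under reorientation departed from that of vertical plants. The lower minus upper difference at 15 and 30 min less the right minus left difference of vertical plants was -1.57 ± 0.23 (SE; adjusted p = 0.02805 in limma) in total RNA. In vertical plants the total RNA signal was 586.2 on the left and 1861.9 on the right in repetition 1, and 786.7 and 1449.8 in repetition 2. At 15 min it was 801.7 in the upper and 582.8 in the lower side of repetition 1, and 709.6 and 545.3 in repetition 2. At 30 min it was 794.9 in the upper and 842.9 in the lower side of repetition 1, and 827.3 and 568.7 in repetition 2. The lower side was thus the higher one in repetition 1 at 30 min, and the 2 vertical right arrays were the highest of all these. The same vertical arrays entered the rule that chose this member, so the call is not independent of the choice. The call was lost without any 1 of 9 of the 12 arrays compared. In polysomal RNA of vertical plants the sides went opposite ways in the 2 repetitions, with 924.7 and 595.2 in repetition 1 and 551.9 and 789.4 in repetition 2. Groups held 2 arrays each, so single arrays were not screened as outliers.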

How the results depend on the processing

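The number of members called depended mainly on how plant pools and repetitions entered the limma fit. The share of all probe sets called under each alternative is not given. The counts below thus do not show whether members changed more than other probe sets. Without the pool as a block, the counts in polysomal RNA were 9 at 5 min, 64 at 15 min, 34 at 30 min, 23 at 60 min, 12 for the return at 60 min and 60 for the onset at 15 and 30 min. The pairing check is described with the processing, and the fit with no replicate block gave 0, 10, 0, 0, 0 and 10 in the same order. The side difference less that of vertical plants in total RNA had 0 members called without the pool block and 0 with no filter. Leaving out, 1 at a time, each array of the groups compared, with the pool correlation kept, gave 0 to 9 members at 5 min, 22 to 27 at 15 min, 4 to 16 at 30 min, 2 to 8 at 60 min, 2 to 4 for the return, 28 to 59 for the onset and 0 to 1 for that side difference. Without the polysomal upper array of repetition 1 at 5 min, with the pool correlation estimated again, 1 member was called at 5 min. At 15 min, a comparison this array is not part of, the count then rose from 34 to 41, and it was 16 at 30 min and 10 at 60 min, so leaving out an array did not only lower the counts. At pseudocounts of 1 and 64, with quantile normalization and with a filter at the 40th percentile, each of these counts stayed within 1.5 times the reported one. Of the 150 members, 139 would be chosen again at a pseudocount of 1, 125 at 64 and 127 with quantile normalization.

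Over the 33 polysomal results of named members at 15 min, at 30 min and for the return, 572 alternatives were computed, and 530 kept direction and side of the threshold, 20 lost the call, 7 gained it and 15 changed sign. The sign changes came from leaving out 1 array and concerned differences close to 0. With 1 array left out, gst11 ran from -0.55 to 0.20 at 15 min, from -0.13 to 0.62 at 30 min and from -0.16 to 0.10 for the return. LOC542694 ran from -0.086 to 0.0075 at 15 min and from -0.044 to 0.021 for the return, and ccr2 from -0.14 to 0.25 for the return. The cause of these changes was not tested beyond the removal of 1 array. The 4 arrays compared per time came from 2 pools of plants, which limits the precision of every value.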
